A study of Mus musculus with 5 samples.

Results

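Lung maturation in room air was described by setting the unsorted lung cells of mice at postnatal day 60 (pnd60) against those at postnatal day 7 (pnd7). Barcodes were kept as cells when more than 700 and fewer than 8000 genes were detected and under 5% of their counts came from the mitochondrial features, which here were the 2 ribosomal RNAs mt-Rnr1 and mt-Rnr2. This left 2308 cells at pnd7 and 4397 at pnd60, together 6705 of the 13200 cells of the 5 libraries in the series. Both air libraries came from C57BL/6J mice that stayed in room air from birth, whose dams were exchanged as in the oxygen group, and whose whole lungs were dissociated and loaded without sorting. The number and sex of the mice behind each air library were not given in the sources used here. A second pair of unsorted libraries, at the same ages, came from C57BL/6J mice that received over 95% O2 from within 12 h of birth for 3 days and then room air. The remaining library held sorted cells of the oxygen group at pnd7 and was not used in any comparison here. With 1 library at each age there was no replicate, so no test between ages was possible, and every interval given is a 95% interval that covers counting error only. Age cannot be told apart from library, preparation and dissociation.

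The mouse lung is born in the saccular stage and forms alveoli in the first weeks after birth. Secondary septa grow into the airspaces, with myofibroblasts laying down elastin at their tips, while a double capillary network in the immature septum later becomes a single one. Type II cells make surfactant, thin type I cells carry gas exchange, and fibroblasts, capillary endothelium and resident immune cells complete the adult alveolus, in which cell division is rare.

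The pnd7 library held 16648251 counts in kept cells (median 3915 counts and 1809 genes per cell), and the pnd60 library 14744081 counts (median 2168 counts and 1266 genes). Hemoglobin transcripts made up 39.2% of all counts at pnd7 and 3.31% at pnd60, and 3.38% against 0.296% in kept cells. Of the kept cells, 953 (41.3%) carried at least 5% hemoglobin counts at pnd7 and 24 (0.546%) at pnd60. The 2 libraries shared 2 barcodes. The nuclear RNA Malat1 stood at 26090 and 35581 CPM (counts of a gene scaled to a library total of 1000000), and ribosomal protein genes took 13.2% and 9.71% of counts. Xist and the Y-linked genes Ddx3y, Uty, Kdm5d and Eif2s3y were counted at both ages, with log2 ratios of -0.00, 1.24, 1.23, 0.97 and 0.41.

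The composition of the recovered cells differed between the ages. Lymphoid cells made up 12.1% (10.8 to 13.5) at pnd7 and 45.3% (43.8 to 46.8) at pnd60, and endothelial cells 6.46% (5.49 to 7.54) at pnd7 and 17.3% (16.2 to 18.4) at pnd60. Epithelial cells stood at 26.0% (24.3 to 27.9) at pnd7 and 12.0% (11.0 to 12.98) at pnd60, and mesenchymal cells at 16.2% (14.7 to 17.8) at pnd7 and 7.96% (7.18 to 8.80) at pnd60. Myeloid cells were 11.4% (10.1 to 12.7) at pnd7 and 14.2% (13.2 to 15.3) at pnd60. The clusters named for hemoglobin or platelet genes held 21.1% (19.5 to 22.8) at pnd7 and 1.25% (0.944 to 1.63) at pnd60. Of the 55 such cells at pnd60, 22 lay in a cluster led by Igha_1, Jchain, Siglech and Klk1 that carried 17.4% hemoglobin at pnd7 (237 cells) and 0.0418% at pnd60, so that its pnd60 cells were not hemoglobin-rich. Lymphoid and endothelial cells thus took larger shares of the adult suspension, and epithelial, mesenchymal and hemoglobin or platelet clusters took larger shares at pnd7. With each cell named by its own markers, the lymphoid difference was 17.1 percentage points in place of 33.2. These are shares of cells recovered by dissociation. A larger share of one compartment lowers all others, and cell numbers in the tissue cannot be read from them.

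**Figure D1:**
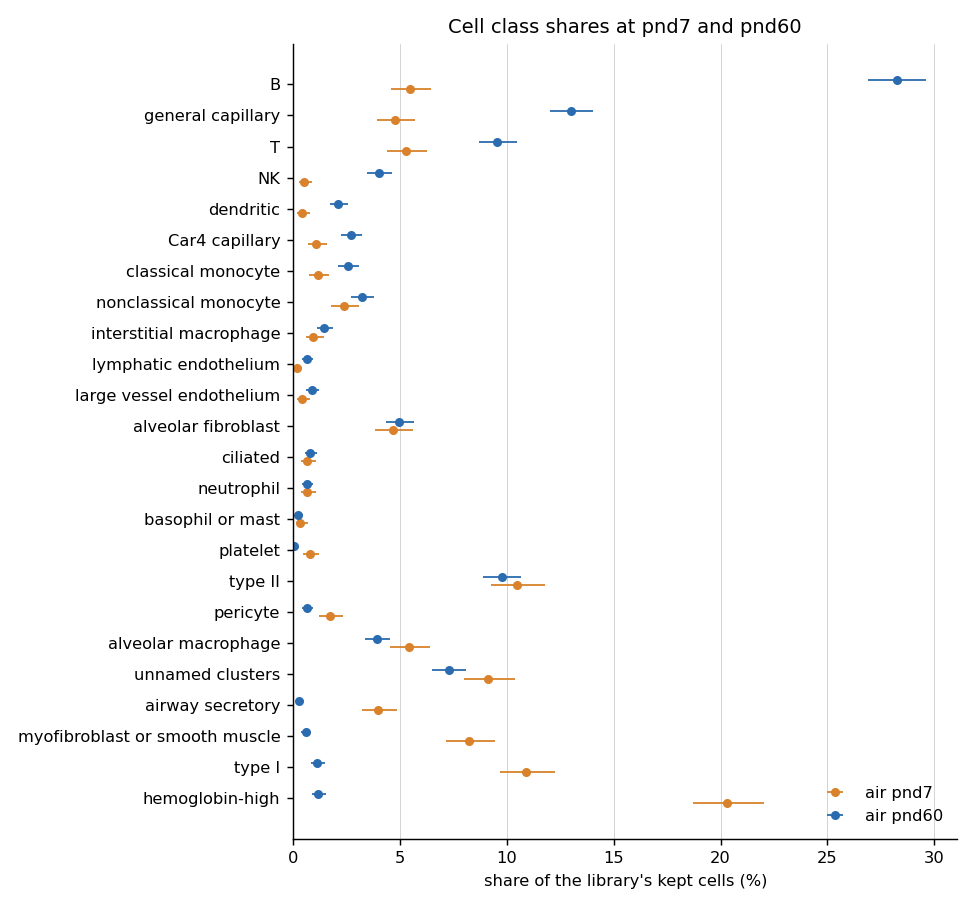
Share of kept cells (percent, x axis) in each cell class at pnd7 and at pnd60 in air, with exact binomial 95% intervals that cover counting error only. B cells stand at 5.46% and 28.2%, and myofibroblasts or smooth muscle at 8.23% and 0.591%, while type II cells stand at 10.5% and 9.76%.

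Among lymphocytes, B cells were 5.46% (126 cells) at pnd7 and 28.2% (1242 cells) at pnd60, T cells 5.29% (122 cells) at pnd7 and 9.55% (420 cells) at pnd60 and NK cells 0.520% (12 cells) at pnd7 and 4.03% (177 cells) at pnd60. General capillary cells, the endothelium that serves as the capillary progenitor, were 4.77% (110 cells) at pnd7 and 13.01% (572 cells) at pnd60, and Car4 capillary cells, the aerocytes specialized for gas exchange, 1.08% (25 cells) at pnd7 and 2.71% (119 cells) at pnd60. Contractile mesenchyme took a smaller share at pnd60. The myofibroblast or smooth muscle class was 8.23% (190 cells) at pnd7 and 0.591% (26 cells) at pnd60, and pericytes were 1.73% (40 cells) at pnd7 and 0.660% (29 cells) at pnd60. Alveolar fibroblasts, which hold lipid and face type II cells, were 4.68% (108 cells) at pnd7 and 4.96% (218 cells) at pnd60, and their intervals overlapped. The intervals also overlapped for type II cells, at 10.5% (9.26 to 11.8) at pnd7 and 9.76% (8.90 to 10.7) at pnd60. Alveolar macrophages, the surfactant-clearing phagocytes of the airspace, were 5.42% (125 cells) at pnd7 and 3.93% (173 cells) at pnd60. They lay in 2 clusters, of which the larger held 77 cells at pnd7 and 167 at pnd60. The smaller held 48 cells at pnd7, with a median of 2128.5 counts and 11.0% hemoglobin, and 6 at pnd60. The lower share at pnd60 thus lay in the smaller cluster. Dendritic cells were 0.433% (10 cells) at pnd7 and 2.12% (93 cells) at pnd60.

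The epithelial difference lay in 2 classes with low counts per cell and raised hemoglobin at pnd7. Type I cells were 10.9% (252 cells) at pnd7 and 1.14% (50 cells) at pnd60, with a median of 2172 counts and 4.75% hemoglobin at pnd7 against 5693 counts and 0.00642% at pnd60. Different clusters held most type I cells at each age: 230 of the 252 at pnd7 were in 1 cluster, and 39 of the 50 at pnd60 in another. The first cluster carried 6.95% hemoglobin at pnd7 and held 11 cells at pnd60. The second carried 0.119% at pnd7, where it held 22 cells. The lower type I share at pnd60 thus lay in the first cluster. Airway secretory cells were 3.99% (92 cells) at pnd7 and 0.296% (13 cells) at pnd60, with medians of 1959 and 22012 counts and hemoglobin shares of 10.1% and 0.00417%. Without the cells carrying at least 5% hemoglobin, the epithelial difference was -7.68 percentage points in place of -14.1, the mesenchymal difference -19.1 in place of -8.24, and the myeloid difference changed sign from 2.84 to -1.88. Leaving hemoglobin genes out before clustering gave -4.44 points for the epithelium. The part of hemoglobin background in these shares was not tested. Over the 3 structural compartments alone, epithelial cells were 53.5% of 1124 cells at pnd7 and 32.2% of 1636 at pnd60, endothelial cells 13.3% and 46.4%, and mesenchymal cells 33.3% and 21.4%.

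Over the whole libraries, 13003 genes had at least 100 counts in the pair. Of these, 1962 (15.1%) were at least 2-fold higher at pnd60 and 1216 (9.35%) at least 2-fold lower, with a median log2 ratio (pnd60 over pnd7, on CPM) of 0.23 over all genes. A gene was called at this 2-fold limit with no test. Scaling by the trimmed mean of M values (TMM) moved the median by -0.22 and gave 1360 higher and 1642 lower, so 45.3% of the calls were higher in place of 61.7%. Without the cells carrying at least 5% hemoglobin the counts were 1835 and 1246, and with hemoglobin genes left out of the totals 1818 and 1297. With every cell thinned to 1000 counts, which removes the difference in depth per cell, 1652 were higher and 653 lower of 9002. In bulk sums of this kind, fewer cells of a type and less RNA per cell cannot be told apart. The ratios were therefore also computed with the class mix held, as the mean of class CPM over the same 21 classes with the same weights at both ages, which gave 1685 (13%) higher and 938 (7.23%) lower of 12981 genes. These were the classes with at least 10 cells at each age. They included the unnamed clusters as 1 class (211 cells at pnd7 and 320 at pnd60) and the hemoglobin-high class (469 and 52 cells). The clusters that made up both of these differed by age, so the mix was not held inside them. Of the 1962 genes higher in the whole libraries, 1247 (63.6%) were at least 2-fold higher with the mix held, which was 74.0% of those called there. Of the 1216 lower genes, 782 (64.3%) were lower with the mix held, 83.4% of those called there.

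**Figure D2:**
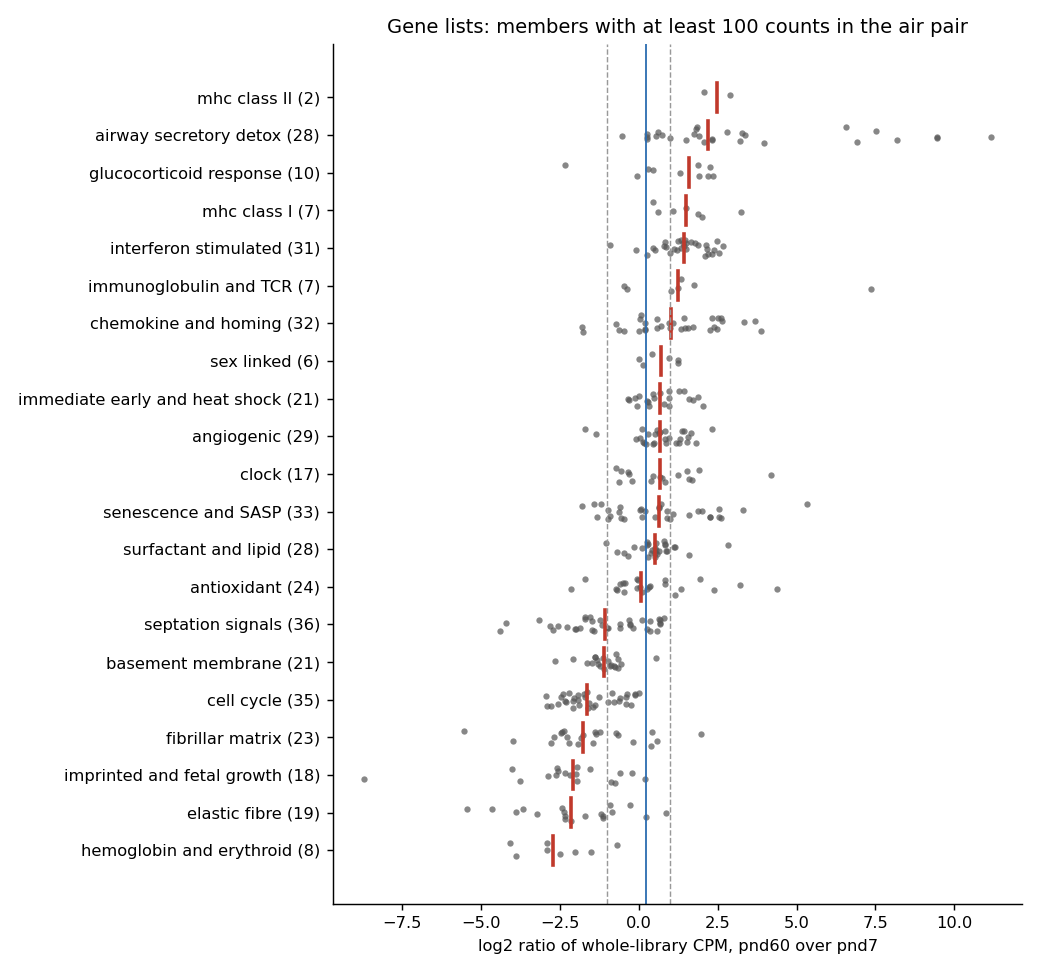
Log2 ratio of CPM at pnd60 over pnd7 (x axis) for the members of each gene list with at least 100 counts in the air pair (points), with the list median (red bar), the median of all 13003 genes at 0.23 (blue line) and 2-fold limits (dashed lines). The cell cycle, imprinted, elastic fibre and fibrillar matrix lists lie mostly to the left, and the airway, interferon-stimulated and MHC lists mostly to the right.

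Genes of elastic fibres and of septation stood lower at pnd60 over the whole libraries. Of 19 elastic fibre genes measured, 14 were at least 2-fold lower, none was 2-fold higher, and the median log2 ratio was -2.15. With the class mix held the median was -1.08, with 11 lower and 1 higher. Elastin itself, Eln (chr5:134702595-134747368 in GRCm38.p6, the build of the positions given here, which is mm10), stood at 2604 CPM (2579 to 2628) at pnd7 and 174 CPM (167 to 181) at pnd60. The log2 ratio was -3.90 (-3.96 to -3.85), and it was -3.05 with the class mix held. Fbn2, a fibrillin of developing microfibrils, had 986 counts at pnd7 and 20 at pnd60, a log2 ratio of -5.45 (-6.17 to -4.81). Ltbp2 and Loxl2, a microfibril-associated protein and a collagen and elastin cross-linking enzyme, had ratios of -4.66 and -3.67. These 4 genes were each far lower at pnd60, whereas Lox, another cross-linking enzyme, stood at -0.29, and the latent TGF-β binding proteins Ltbp1 and Ltbp4 at 0.23 and 0.85. The Eln counts came from more than 1 class. Myofibroblasts or smooth muscle held 36.0% of the Eln counts at pnd7, with 7112 CPM at pnd7 and 565 CPM at pnd60. Pericytes held 21.1%, with 20002 CPM at pnd7 and 1860 CPM at pnd60. Alveolar fibroblasts stood at 1859 CPM (1785 to 1935) at pnd7 and 902 CPM (839.6 to 968) at pnd60. In CPM, Eln was therefore lower at pnd60 in each of these classes, by the least in the alveolar fibroblasts. At pnd60 the myofibroblast or smooth muscle class had 26 cells and the pericytes 29, under the limit of 50 cells for comparing classes. Whether the mix of cells inside these classes differed by age was not tested.

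Of 23 fibrillar matrix genes, 16 were at least 2-fold lower and 1 higher, with a median of -1.76 that was -0.75 with the class mix held. Tnc (chr4:63959785-64047015), the matrix glycoprotein tenascin C, stood at 408 CPM (398 to 418) at pnd7 and 8.75 CPM (7.30 to 10.4) at pnd60, a log2 ratio of -5.54 (-5.81 to -5.29). The proteoglycan Vcan stood at 139.9 CPM at pnd7 and 8.88 CPM at pnd60, a ratio of -3.98 (-4.24 to -3.72). Col1a1, the main chain of type I collagen, stood at 1634 CPM (1615 to 1654) at pnd7 and 254 CPM (246 to 262) at pnd60, a ratio of -2.69 (-2.74 to -2.64), and Col5a1 had -2.77. Both collagens and both matrix glycoproteins were thus lower at pnd60. Col5a3 was the exception at the other end, with 23 counts at pnd7 and 79 at pnd60 and a ratio of 1.96 (1.27 to 2.69). Of 21 basement membrane genes, 11 were at least 2-fold lower and none higher (median -1.10, and -0.27 with the mix held). Nid2 and Lamb1, a nidogen and a laminin chain, had ratios of -2.64 and -2.09, and Npnt, an epithelial basement membrane protein, had 0.56.

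Among 36 signalling genes of septation, 19 were at least 2-fold lower and none higher. The median was -1.09 over the whole libraries and -0.03 with the class mix held, where 11 were lower and 6 higher. The growth factor Fgf18 stood at 76.3 CPM (72.1 to 80.6) at pnd7 and 3.59 CPM (2.69 to 4.70) at pnd60, a log2 ratio of -4.41 (-4.83 to -4.01). Wnt5a (chr14:28504543-28527448), a non-canonical Wnt ligand, stood at 186 CPM (179.9 to 193) at pnd7 and 9.97 CPM (8.42 to 11.7) at pnd60, a ratio of -4.22 (-4.47 to -3.99). Myofibroblasts or smooth muscle held 72.3% of the Wnt5a counts at pnd7. Wnt11 had a ratio of -3.16, and Crabp1, a retinoic acid binding protein, -2.82, while Fgf2 stood at 0.79 and Lef1 at 0.69. Pdgfra, the receptor that marks alveolar myofibroblast precursors and alveolar fibroblasts, was looked at after its values were seen. It stood at 98.6 CPM at pnd7 and 146 CPM at pnd60 over the whole libraries, a ratio of 0.57 (0.48 to 0.66). At pnd7 the myofibroblast class held 1072 of the 1642 counts, at 488 CPM. At pnd60 the alveolar fibroblasts held 1612 of 2158, and within that class Pdgfra stood at 60.3 CPM (47.6 to 75.4) at pnd7 and 1891 CPM (1800.2 to 1986) at pnd60. Most Pdgfra counts were therefore in a different class at each age.

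**Figure D3:**
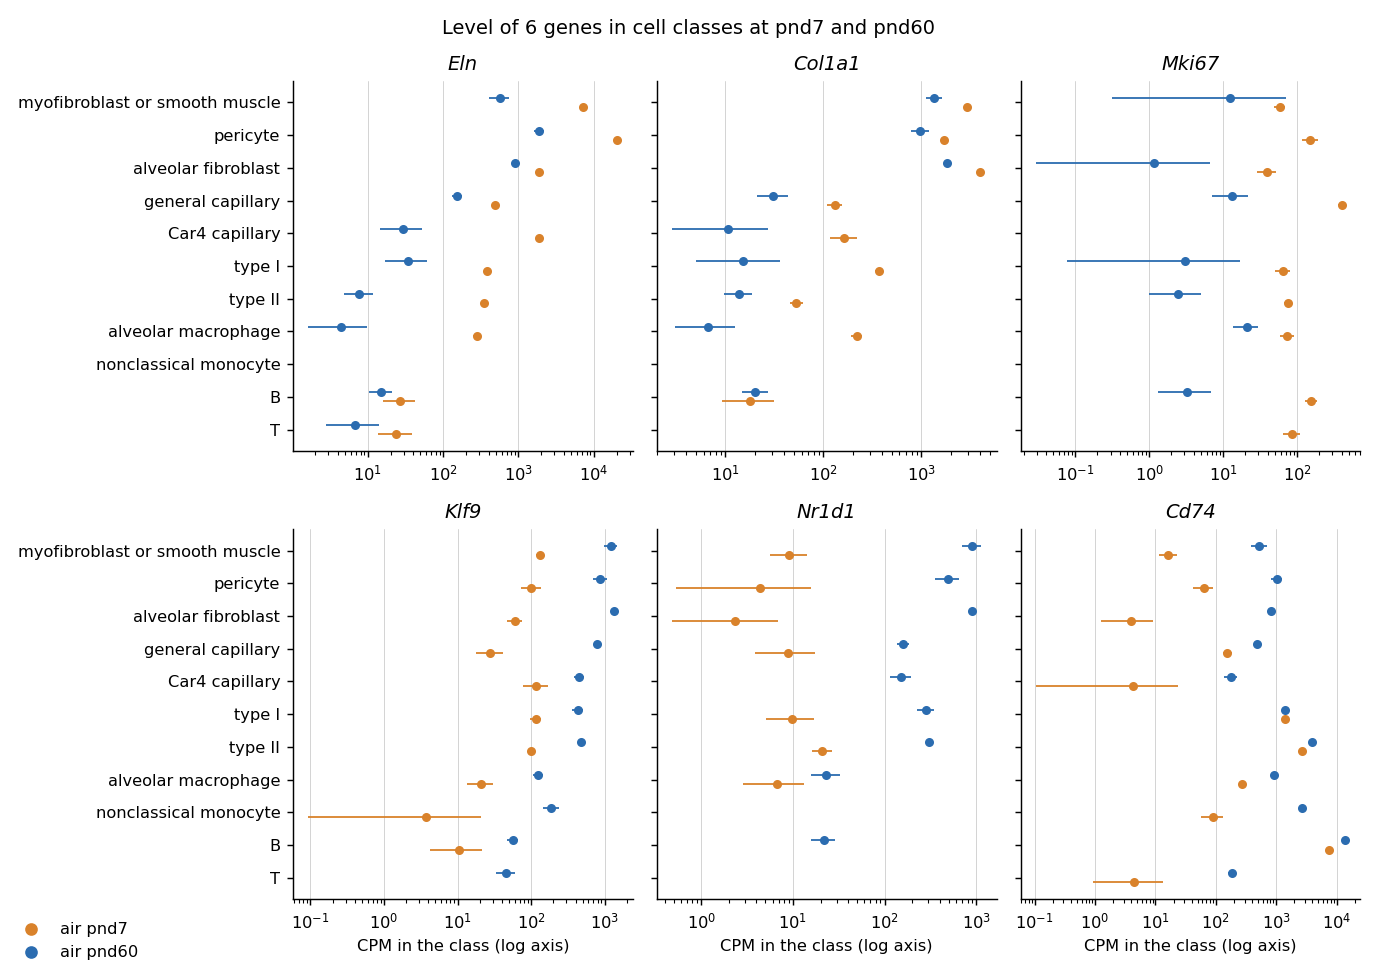
CPM (log axis) of named genes in the cell classes at pnd7 and at pnd60 in air, with exact Poisson 95% intervals that cover counting error only. A class with 0 counts has no point on the log axis, and Eln in alveolar fibroblasts stands at 1859 and 902 CPM.

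The lowest ratios of all genes were also largely those of cells or programs found at pnd7. Agt, angiotensinogen, had 2577 counts at pnd7 and 7 at pnd60, a log2 ratio of -8.35 (-9.66 to -7.30), with 79.7% of its pnd7 counts in the myofibroblast class. Prss35, a serine protease family member, had 2379 counts at pnd7 and 9 at pnd60, a ratio of -7.87 (-9.00 to -6.94), with 76.0% in that class. Lrrc15 had 355 counts at pnd7 and 0 at pnd60, a ratio of at most -6.71 against a floor of 3 counts, with 87.3% in that class, and Fndc5 had 125 counts at pnd7 and 1 at pnd60. The others apart from H19 were genes of mast cells and neutrophils, counted in few cells. Mcpt4, a mast cell protease, had 2103 counts at pnd7 and 2 at pnd60, in 9 cells of which the top 5 held 99.8% of the pnd7 counts. Tpsb2, a mast cell tryptase, had 810 counts at pnd7 in 4 cells and 0 at pnd60. The stefin genes Cstdc5, Stfa1 and Stfa2 had 2083, 2509 and 391 counts at pnd7 and 0, 17 and 0 at pnd60, and 93.8% of the pnd7 Cstdc5 counts were in neutrophils, of which there were 15 at pnd7 and 29 at pnd60.

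Imprinted and fetal growth genes stood lower at pnd60 as a group. Of 18 measured, 13 were at least 2-fold lower and none higher, with a median of -2.08 and of -1.66 with the class mix held. H19 (chr7:142575530-142578146), the imprinted long non-coding RNA next to Igf2, had 947 counts at pnd7 and 2 at pnd60, a log2 ratio of -8.71 (-11.76 to -6.86). Igf2bp3, an RNA-binding protein of fetal tissues, had 481 counts at pnd7 and 26 at pnd60, a ratio of -4.03 (-4.66 to -3.47). Both had few counts left in the adult library. The imprinted genes Mest and Nnat had ratios of -3.75 and -2.89, while Sox11 stood at 0.19 and Igf2r at -0.23. Within alveolar fibroblasts, 7 of 9 measured members were at least 2-fold lower and none higher, among them Nnat at -5.97. In general capillary cells 5 of 8 were lower and none higher, in type II cells 3 of 9 lower and 1 higher, and in type I cells 2 of 6 each way.

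Cell cycle genes stood lower at pnd60. Of 35 measured, 23 were at least 2-fold lower and none higher, with a median log2 ratio of -1.65 and of -1.88 with the class mix held. Hmmr, a spindle protein, had 592 counts at pnd7 and 68 at pnd60, a ratio of -2.95 (-3.33 to -2.58). Ube2c, the ubiquitin-conjugating enzyme of the anaphase-promoting complex, had 1974 counts at pnd7 and 232 at pnd60, a ratio of -2.91 (-3.12 to -2.72). Cdk1, the mitotic kinase, and Cenpf, a kinetochore protein, had ratios of -2.78 (-3.04 to -2.53) and -2.58 (-2.75 to -2.40). All 4 were lower at pnd60 by far more than the limit of 2-fold. The replication genes Pcna, E2f1, Mcm6 and Mcm7 stood at 0.00, -0.11, -0.12 and -0.24, so their levels in CPM were close at both ages.

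The promoters of the 4 lowest members are shown because the letters they share are those known from genes of mitosis. They run from 250 bases before the RefSeq start to 50 after it (GRCm38.p6), 5′ to 3′ along the gene. Capitals mark each CHR element, searched as TTTGAA or TTCGAA, and each CCAAT box, searched as CCAAT, both on either strand (so that CCAAT also appears as ATTGG). Where matches overlap, the capitals run on. The windows lie at chr11:40733388-40733687 (Hmmr, minus strand), chr2:164769679-164769978 (Ube2c, plus strand), chr10:69352863-69353162 (Cdk1, minus strand) and chr1:189688037-189688336 (Cenpf, minus strand).
Hmmr: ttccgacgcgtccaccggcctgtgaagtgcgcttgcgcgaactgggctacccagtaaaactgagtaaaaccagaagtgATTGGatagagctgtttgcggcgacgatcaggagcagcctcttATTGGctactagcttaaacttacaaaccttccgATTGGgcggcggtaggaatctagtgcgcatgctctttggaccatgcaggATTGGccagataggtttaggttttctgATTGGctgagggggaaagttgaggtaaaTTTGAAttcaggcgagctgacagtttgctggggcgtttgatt
Ube2c: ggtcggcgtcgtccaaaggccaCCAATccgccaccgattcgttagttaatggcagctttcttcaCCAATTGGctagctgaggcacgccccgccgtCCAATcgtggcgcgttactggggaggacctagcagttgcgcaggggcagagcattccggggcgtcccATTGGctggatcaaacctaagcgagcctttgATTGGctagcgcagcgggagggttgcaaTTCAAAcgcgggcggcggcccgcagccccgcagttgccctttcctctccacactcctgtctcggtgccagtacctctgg
Cdk1: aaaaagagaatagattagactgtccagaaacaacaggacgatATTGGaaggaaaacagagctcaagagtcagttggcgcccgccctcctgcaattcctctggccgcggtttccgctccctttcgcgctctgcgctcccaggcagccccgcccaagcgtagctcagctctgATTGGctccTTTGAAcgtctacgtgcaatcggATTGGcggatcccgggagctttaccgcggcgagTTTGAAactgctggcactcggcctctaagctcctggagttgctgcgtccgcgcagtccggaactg
Cenpf: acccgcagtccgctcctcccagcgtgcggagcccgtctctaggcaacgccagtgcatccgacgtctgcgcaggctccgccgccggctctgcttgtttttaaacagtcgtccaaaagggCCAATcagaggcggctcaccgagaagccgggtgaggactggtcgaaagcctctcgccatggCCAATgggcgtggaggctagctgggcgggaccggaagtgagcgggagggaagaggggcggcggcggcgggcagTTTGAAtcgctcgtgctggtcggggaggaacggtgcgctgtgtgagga
The 4 promoters held 1, 1, 2 and 1 CHR matches and 5, 6, 3 and 2 CCAAT matches in that order. RefSeq listed 31 promoters for 30 of the 36 genes of the list. A CHR match was found in 54.8% of these 31 promoters and in 19.2% of all 32851 promoters of the same length, a CCAAT match in 80.6% and 37.4%, and both in 54.8% and 7.52%. Among the members at least 2-fold lower, 66.7% of 18 promoters held a CHR match, and among those under 2-fold, 33.3% of 12. These are matches of letters and do not show that a factor was bound.

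Single cells were called cycling when at least 3 genes of the list were detected, after each cell was thinned to 1000 counts (4 and 37 shallower cells were left out). Such cells were 12.5% (11.1 to 13.9) at pnd7 and 2.45% (2.02 to 2.96) at pnd60, and 39.2% and 9.35% before thinning. General capillary cells stood at 26.6% (18.6 to 35.9) at pnd7 and 0.548% (0.113 to 1.59) at pnd60, and at 50% and 1.40% before thinning. Type II cells stood at 9.09% at pnd7 and at 0 at pnd60, where the 95% interval reaches 0.856%. Before thinning they stood at 43.4% and 10.0%, so a 0 after thinning does not mean that no cell carried such counts. Alveolar macrophages stood at 11.2% (6.26 to 18.1) at pnd7 and 6.94% (3.64 to 11.8) at pnd60, with overlapping intervals, and at 58.4% and 50.9% before thinning. T cells stood at 10.7% (5.80 to 17.5) at pnd7 and 1.68% (0.679 to 3.44) at pnd60, and B cells at 8.73% (4.44 to 15.1) at pnd7 and 1.21% (0.679 to 1.99) at pnd60. Pericytes stood at 15% (5.71 to 29.8) at pnd7 and 0% (0 to 11.9) at pnd60, and the myofibroblast class at 5.26% (2.55 to 9.47) at pnd7 and 0% (0 to 13.2) at pnd60. Before thinning, pericytes stood at 35% and 0% and the myofibroblast class at 45.3% and 15.4%. Type I cells stood at 9.92% (6.52 to 14.3) at pnd7 and 0% (0 to 7.11) at pnd60, and alveolar fibroblasts at 1.85% (0.225 to 6.53) at pnd7 and 0.459% (0.0116 to 2.53) at pnd60. Before thinning, type I cells stood at 38.5% and 16% and alveolar fibroblasts at 34.3% and 1.38%. Nonclassical monocytes, which leave the cycle when they differentiate, had none at either age after thinning, and 5.45% and 1.42% before it. An unnamed cluster led by Top2a, Pclaf, Cenpf and Mki67 held 47 cells at pnd7 and 37 at pnd60. Its Mki67 stood at 1270 CPM at pnd7 and 1171 CPM at pnd60. Its cells belong to no class, so the class shares here and the cell cycle ratios within classes leave them out.

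**Figure D4:**
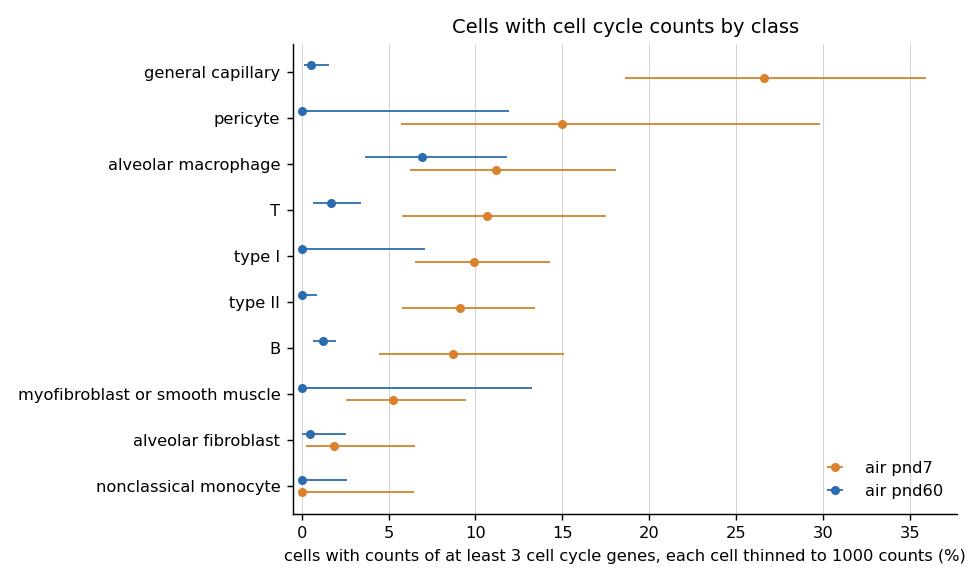
Percent of cells with at least 3 cell cycle genes detected (x axis) in each class at pnd7 and pnd60, after thinning every cell to 1000 counts, with exact binomial 95% intervals that cover counting error only. General capillary cells stand at 26.6% at pnd7 and 0.548% at pnd60, and alveolar macrophages at 11.2% and 6.94%.

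Within single classes, genes were called at the same 2-fold limit among those with at least 100 counts in the class. General capillary cells had 648 genes (15.5%) higher and 656 (15.7%) lower at pnd60 of 4179. Of 18 cell cycle genes measured there, 17 were at least 2-fold lower and none higher, with a median of -5.07. Ube2c, Birc5 and Cenpe, the last 2 a chromosomal passenger protein and a kinetochore motor, stood at -8.59, -7.96 and -7.73. At the other end, Cyp1a1 (chr9:57687928-57703824), the aryl hydrocarbon receptor target that oxidizes xenobiotics, stood at 2.22 CPM at pnd7 and 421 CPM at pnd60 in this class and at 8.37 CPM at pnd7 and 1435 CPM at pnd60 in Car4 capillary cells. Over the whole libraries Cyp1a1 had 7 counts at pnd7 and 1146 at pnd60, a log2 ratio of 7.53 (6.48 to 8.85). Xdh, xanthine dehydrogenase, had a ratio of 4.92 in general capillary cells, and the transcription factor genes Klf9 and Nr1d1 of 4.81 and 4.16. Of 29 genes of vascular growth in the whole libraries, 10 were at least 2-fold higher and 2 lower (median 0.67, and 0.74 with the mix held). The VEGF receptor gene Flt1 stood at 59.3 CPM at pnd7 and 209 CPM at pnd60, a ratio of 1.82 (1.71 to 1.92). The shear-responsive factor Klf2 and the Notch target Hey1 had ratios of 1.64 and 1.57. Esm1, a tip cell gene, had 28 counts at pnd7 and 123 at pnd60 (2.31). Pgf and Unc5b, a VEGF family ligand and a guidance receptor, were lower, at -1.70 and -1.35. Within general capillary cells, 7 of 16 measured members were higher and none lower.

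Type II cells had 644 genes (9.42%) higher and 238 (3.48%) lower of 6839, and 14.6% higher and 9.32% lower of the 869 left after thinning. In the whole libraries, 4 of 28 surfactant and lipid genes were at least 2-fold higher and 1 lower (median 0.52, and 0.54 with the mix held). Within type II cells, 10 of the 19 members that were not used as markers were higher and none lower, with a median of 1.02. Scd1 (chr19:44394450-44407709), the desaturase that makes monounsaturated fatty acids, stood at 245 CPM (238 to 253) at pnd7 and 1734 CPM (1713 to 1756) at pnd60 over the whole libraries and at 966 CPM at pnd7 and 8076 CPM at pnd60 in type II cells. The fatty acid elongase Elovl1 and the phosphate transporter Slc34a2 had whole-library ratios of 1.59 and 1.10. Sftpc, the surfactant protein that marks these cells, stood at 46322 CPM at pnd7 and 28409 CPM at pnd60, a ratio of -0.71 (-0.71 to -0.70), and Lyz1, a lysozyme of type II cells, at -1.04. The share of members called higher over the whole libraries was near that of all genes, 15.1%. Prmt8 (chr6:127689009-127769467), an arginine methyltransferase, had 1 count at pnd7 and 250 at pnd60, of which 94.4% were in type II cells. Within the class the highest were Prmt8 at 8.03 and Cyp2b10, a cytochrome P450, at 7.70. Among the lowest were Ube2c at -7.89 and Sox9, a factor of distal lung progenitors, with 237 counts at pnd7 and 2 at pnd60 (-6.74). Of 17 cell cycle genes in type II cells, 13 were lower and none higher, with a median of -2.36.

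Type I cells had 386 genes (14.1%) higher and 311 (11.4%) lower of 2735. The lower share was 41.3% of the 329 genes left after thinning and 19.1% without called doublets. Cyp2b10 and Cyp4b1, both cytochrome P450 genes, had the highest ratios, at 9.93 and 8.35, and Igfbp6 stood at 5.31. Vegfa, the ligand through which type I cells signal to capillaries, stood at 1248 CPM at pnd7 and 6390.1 CPM at pnd60, a ratio of 2.36 (2.26 to 2.45). Among the lowest were Col1a1 at -4.62 and the water channel gene Aqp1 at -5.34. Col1a1 and Aqp1 are known for mesenchyme and endothelium. Sftpc counts in type I cells were 76358 CPM at pnd7 and 29574 CPM at pnd60, and in pericytes 6828 CPM at pnd7 and 190.2 CPM at pnd60. This type II transcript was thus more frequent in the pnd7 cells of both classes, which does not hold for every transcript of other cell types. The 50 type I cells at pnd60, and the different cluster holding them, limit these values.

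Airway secretory and detoxification genes were higher at pnd60 as a group, with 20 of 28 at least 2-fold higher and none lower (median 2.20, and 1.90 with the mix held). The most extreme of them rested on very few cells. Bpifa1 (chr2:154142880-154149217), an antimicrobial airway secretion, had 0 counts at pnd7 and 6125 at pnd60, of which 60.1% came from 1 cell and 98.4% from 5. It was counted in 4 of 13 airway secretory cells at pnd60. Bpifb1, Scgb3a1, Reg3g and Tff2, secreted proteins of proximal airway and mucous cells, had 628, 3739, 782 and 171 counts at pnd60 against 1, 6, 0 and 1 at pnd7. These genes set the range of the list rather than its middle. Scgb3a2, a secretoglobin of the distal airway, stood at 0.25, and the carboxylesterase Ces1d at 0.26. Of the members not used as markers, 7 of 8 measured were higher in general capillary cells, 7 of 11 in type II cells and 5 of 7 in alveolar fibroblasts. In type I cells 5 of 6 were higher, in B cells 3 of 3 and in alveolar macrophages 0 of 3. None was lower in these classes. Of all genes measured, 15.5% were higher in general capillary cells, 9.42% in type II cells and 15.5% in alveolar fibroblasts. The share was 14.1% in type I cells, 24.2% in B cells and 4.52% in alveolar macrophages. Scgb1a1, a marker of airway secretory cells, was counted in 557 of 2308 cells at pnd7 and 2590 of 4397 at pnd60. The part of free RNA in these class values was not tested. The airway secretory class itself, with 13 cells at pnd60, was too small to be compared.

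Alveolar fibroblasts had 627 genes (15.5%) higher and 662 (16.4%) lower of 4042, and 27.1% higher and 28.6% lower of the 472 left after thinning. Inmt (chr6:55170627-55174990), an indolethylamine methyltransferase abundant in adult lung, stood at 5.29 CPM (4.24 to 6.51) at pnd7 and 945 CPM (929 to 961) at pnd60 over the whole libraries, a log2 ratio of 7.48 (7.18 to 7.80), and alveolar fibroblasts held 62.2% of its pnd60 counts. Within the class, Gsta3, a glutathione transferase, and Crispld2, a glucocorticoid-responsive secreted protein, had 1 and 0 counts at pnd7 and 287 and 740 at pnd60. At the other end stood Mdk, the growth factor midkine, at 1495 CPM at pnd7 and 27.0 CPM at pnd60 and a ratio of -5.79 (-6.45 to -5.20), with Opcml, Nnat, Basp1 and Capn6 at -6.36, -5.97, -5.91 and -5.66. Of 13 elastic fibre genes that were not markers of the class, 4 were higher and 3 lower there, with a median of 0.06, and of 17 fibrillar matrix genes, 1 was higher and 5 lower.

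Clock genes and genes that respond to glucocorticoids were higher at pnd60 in several classes. Nr1d1 (chr11:98767932-98775377), the REV-ERBα repressor of the circadian clock, stood at 9.91 CPM (8.46 to 11.5) at pnd7 and 179 CPM (173 to 186) at pnd60, a log2 ratio of 4.18 (3.95 to 4.41). Of 17 clock genes, 6 were at least 2-fold higher and none lower over the whole libraries (median 0.67), among them Per1 at 1.92, Dbp at 1.69 and Ciart at 1.59, while Hlf stood at -0.63. Hlf changed sign with the class mix held, to 1.32. In alveolar fibroblasts 7 of 8 measured clock genes were higher and none lower (median 3.52), and in general capillary cells 5 of 5 (median 2.16). In type II cells 5 of 11 were higher and 1 lower, in alveolar macrophages 2 of 5 and in type I cells 2 of 2 were higher, in B cells 2 of 3 were higher and 1 lower, and the 1 measured in T cells and in nonclassical monocytes was under 2-fold. The time of day at which the lungs were taken is not stated in the labels or the methods, and age cannot be told apart from it. Klf9 (chr19:23141226-23168129), a target of the glucocorticoid receptor, stood at 72.0 CPM (67.9 to 76.2) at pnd7 and 368 CPM (358 to 378) at pnd60, a ratio of 2.35 (2.26 to 2.45). Of 10 glucocorticoid response genes, 6 were at least 2-fold higher and 1 lower (median 1.59), with Zbtb16 at 2.25 and Tsc22d3 at 2.19 among the higher. Cdkn1c, an imprinted cell cycle inhibitor, was the lower one, at -2.36, and Nr3c1, the receptor itself, stood at 0.30. Members were at least 2-fold higher in 6 of 8 measured in alveolar fibroblasts, 6 of 6 in B cells, 5 of 7 in alveolar macrophages, 4 of 6 in general capillary cells, 3 of 5 in T cells, 3 of 4 in nonclassical monocytes, 4 of 10 in type II cells and 3 of 6 in type I cells. The fibroblasts, type I and type II cells each had 1 member lower. Immediate early and heat shock genes, which dissociation is known to induce, were counted together beside them. Over the whole libraries, 6 of 21 were at least 2-fold higher and none lower (median 0.69), with Egr3, Dusp1, Nr4a1 and Zfp36 at 2.03, 1.87, 1.73 and 1.60 and the heat shock gene Hspa8 at -0.35. They were higher in 10 of 14 in alveolar fibroblasts (1 was lower), 10 of 16 in B cells, 8 of 15 in nonclassical monocytes, 5 of 15 in alveolar macrophages and 5 of 13 in T cells. In general capillary cells 5 of 15 were higher and 2 lower, in type I cells 4 of 15 were higher and 1 lower (median -0.52), and in type II cells 1 of 18 was higher (median -0.02). Their part in the clock and glucocorticoid values was not tested.

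Antigen presentation and interferon-stimulated genes were higher at pnd60. Cd74, the invariant chain of MHC class II, stood at 1162 CPM (1145 to 1178) at pnd7 and 4898 CPM (4862 to 4934) at pnd60, a log2 ratio of 2.08 (2.05 to 2.10), and its transactivator Ciita at 2.90. Of 11 MHC class II genes in the list only Cd74 and Ciita reached 100 counts. H2-Aa, H2-Ab1 and H2-Eb1 had 31, 40 and 14 counts at pnd60 against 72219 for Cd74, and H2-D1, Igkc, Trbc1 and Trbc2 had 0 in both libraries. The files list many genes a second time with a copy suffix, and these low counts limit what can be said of the MHC, immunoglobulin and T cell receptor genes. Of 7 MHC class I pathway genes, 5 were at least 2-fold higher and none lower, including B2m, the light chain, at 451 CPM (441 to 462) at pnd7 and 1644 CPM (1623 to 1664) at pnd60, a ratio of 1.86 (1.83 to 1.90), and the transactivator Nlrc5 at 3.23. The class I median was 1.5, and 0.98 with the class mix held, where 3 were higher. The class II median was 2.49, and 1.68 with the mix held. Of the class I genes measured, 5 of 6 were higher in general capillary cells, 2 of 2 in alveolar fibroblasts, 1 of 2 in type I cells, 1 of 5 in type II cells, 0 of 5 in alveolar macrophages and 0 of 2 in nonclassical monocytes, while 3 were higher and 1 lower in B cells (of 6) and in T cells (of 7). Of 31 interferon-stimulated genes, 22 were at least 2-fold higher and none lower (median 1.44, and 1.25 with the mix held). Ly6e, a membrane protein that restricts viral entry, stood at 316 CPM at pnd7 and 1629.7 CPM at pnd60, a ratio of 2.37 (2.33 to 2.41). Mx1, Cxcl10 and Gbp4 had 2.66, 2.54 and 2.47, and the GTPase gene Iigp1 stood at -0.90. Of 32 chemokine and homing genes, 16 were higher and 2 lower (median 1.04). With the mix held, 12 were higher and 2 lower (median 0.73). Over the whole libraries the higher ones included Ccl17 and Ccl22, dendritic cell ligands of CCR4, at 3.87 and 3.68, and Cxcl14 at 3.33. At pnd60, 5 cells held 65.4% of the Ccl17 counts and 80.5% of the Ccl22 counts. The 2 lower genes over the whole libraries were Cxcl13 and Ccl7, at -1.81 and -1.76.

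Several B cell receptor and antibody transcripts were higher at pnd60, but not all. Of 7 immunoglobulin and T cell receptor genes of the list measured, 5 were at least 2-fold higher and none lower. Cd3d and Cd3g, chains of the T cell receptor complex, had 1120 and 1232 counts at pnd7 and 765 and 779 at pnd60. The light chain copy Iglc1_1 had 2291 counts at pnd7 and 1666 at pnd60. Cd79b, a chain of the B cell receptor, had a log2 ratio of 1.76 (1.69 to 1.84). Jchain, which joins IgA and IgM polymers, had 21 counts at pnd7 and 3072 at pnd60, a ratio of 7.37 (6.75 to 8.06). At pnd60 Jchain was counted in 21 cells, of which 5 held 99.5% of the counts, and 3054 of the 3072 lay in the cluster led by Igha_1 and Jchain, which falls in the hemoglobin-high class and not in B cells. The copy Igha_1 of the IgA heavy chain had 0 counts at pnd7 and 13303 at pnd60, of which 98.9% were in 5 cells and 13155 in that same cluster. With the class mix held, the immunoglobulin and T cell receptor list had 1 member higher and 2 lower, and a median of 0.19 in place of 1.25. Within B cells, 1138 genes (24.2%) were higher and 398 (8.47%) lower of 4697, and 4 of 8 cell cycle genes were at least 2-fold lower and none higher, with Mki67, the proliferation antigen, at -5.56. Different clusters held most B cells at each age, 84 of 126 at pnd7 and 800 of 1242 at pnd60. Within T cells, 407 genes (14.5%) were higher and 211 (7.51%) lower of 2810, with Cxcr4, a homing receptor, at 3.32 and Stmn1, a microtubule regulator of dividing cells, at -2.58. A cluster led by Rag1, a gene of immature lymphocytes, held 32 of the 122 T cells at pnd7 and 36 of the 420 at pnd60. The make-up of the T class thus differed by age.

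Several of the largest differences in lymphocytes and monocytes were in genes known for other cell types. Epas1, a hypoxia-inducible factor of endothelium, stood at 6.00 CPM at pnd7 and 240.2 CPM at pnd60 in B cells, at 3.00 CPM at pnd7 and 202 CPM at pnd60 in T cells and at 3.71 CPM at pnd7 and 282 CPM at pnd60 in nonclassical monocytes, beside 1885 CPM at pnd7 and 4518 CPM at pnd60 in general capillary cells. Gpx3, an extracellular glutathione peroxidase, had 0 counts at pnd7 and 205 and 131 CPM at pnd60 in B and T cells. At pnd7, in turn, alveolar macrophages held Eln at 279.9 CPM and Col1a1 at 219 CPM. In each class these genes moved in the direction of the whole library. The part of free RNA in them, and in the Cd74 counts of T cells and alveolar fibroblasts, was not tested. Alveolar macrophages otherwise had 201 genes (4.52%) higher and 112 (2.52%) lower of 4443, and nonclassical monocytes had 55 (4.75%) each way of 1158. After thinning, 5.73% of 436 genes were lower in alveolar macrophages. The highest ratios in alveolar macrophages included Lrg1 at 5.66, with 100 of its 114 counts at pnd60 in 6 cells of 1 cluster, the chemokine Cxcl2 at 4.35 and Scd1 at 3.74, and the lowest was the chemokine Ccl5 at -6.31. Over the 8 classes, 722 genes reached 100 counts in every class. None of the 722 was at least 2-fold higher in all 8, and 6 were lower in all 8: Atp5e, Gm38733, Gm9385, Hint1, Rps13 and Rps7, of which the first encodes an ATP synthase subunit and the last 2 ribosomal proteins. Ribosomal protein genes as a whole took 13.2% of counts at pnd7 and 9.71% at pnd60.

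Of 24 antioxidant genes, 6 were at least 2-fold higher and 2 lower, and the median was 0.06, which turned to -0.15 with TMM scaling. Gpx3 (chr11:54902854-54910387) stood at 31.4 CPM (28.8 to 34.2) at pnd7 and 657 CPM (644 to 670.5) at pnd60, a log2 ratio of 4.39 (4.26 to 4.52), and within alveolar fibroblasts at 151 CPM at pnd7 and 7202 CPM at pnd60. Sod3, the extracellular superoxide dismutase, Gpx2, and Gclc, which limits glutathione synthesis, had ratios of 3.22, 2.40 and 1.95. The peroxiredoxins Prdx4 and Prdx2 were lower, at -2.16 and -1.72. Prdx2 is also abundant in red cells, whose Hbb-bs and Hba-a1 had ratios of -3.91 and -2.91. The 2 extracellular enzymes were among the highest of the list, and the 2 peroxiredoxins the lowest.

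The study asked about senescence in normal lung development and after oxygen. The air pair gives the levels of those genes in room air at pnd7 and pnd60, where age cannot be told apart from library. Cdkn1a (chr17:29090979-29100722), which encodes the cell cycle inhibitor p21, stood at 11.2 CPM (9.62 to 12.9) at pnd7 and 44.7 CPM (41.3 to 48.2) at pnd60, a log2 ratio of 2.00 (1.76 to 2.24). In Car4 capillary cells it stood at 8.37 CPM at pnd7 and 258 CPM at pnd60, on 2 and 98 counts, in general capillary cells at 10.0 CPM at pnd7 and 70.7 CPM at pnd60, and in type II cells at 10.5 CPM at pnd7 and 18.7 CPM at pnd60. It was thus higher at pnd60 in these 3 classes, on few counts at pnd7 and by less than 2-fold in type II cells. Car4 capillary cells numbered 25 at pnd7, under the limit of 50 cells for comparing classes. Over the whole libraries Cdkn1a had 186 counts at pnd7 and 659 at pnd60, and its level in other classes is not given here. Cdkn2a, which encodes p16, had 19 counts at pnd7 and 11 at pnd60, too few for a ratio here. Lmnb1, a nuclear lamin that is lost in senescence and is abundant in dividing cells, stood at 97.4 CPM (92.7 to 102) at pnd7 and 49.5 CPM (46.0 to 53.2) at pnd60, a ratio of -0.98 (-1.10 to -0.85). Glb1, the lysosomal β-galactosidase, and Plaur, the urokinase receptor, stood at 0.07 and 0.51. Of 33 genes of senescence and its secretory program, 11 were at least 2-fold higher and 4 lower (median 0.64, and 0.17 with the mix held). The higher ones included Mmp3 (3 counts at pnd7 and 106 at pnd60), Igfbp3 at 3.31 and Mmp12 at 2.56, and the 4 lower ones were Mmp14, Hmgb2, Hmgb1 and Mmp2, at -1.80, -1.42, -1.31 and -1.20. The list thus held genes at both ends.

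The oxygen-exposed pair covers the same ages in other libraries and shares none with the air pair. Its 1246 cells at pnd7 and 4756 at pnd60 differ from the air pair in treatment, so it is no replicate. There, 2469 genes (19.1%) were at least 2-fold higher and 1227 (9.49%) lower of 12923. Of the 1927 genes higher in air that were measured in both pairs, 1736 (90.1%) were at least 2-fold higher after oxygen as well, 72.1% of those called there among shared genes. Of 1133 lower genes, 963 (85.0%) were lower in both, 79.9% of those called after oxygen. Over 12784 genes with at least 100 counts in each pair, Pearson's r of the log2 ratios was 0.944, a description across genes, which are not independent. The list medians had the same sign in both pairs for cell cycle (-2.30), elastic fibre (-1.82), fibrillar matrix (-1.46), imprinted (-1.68), airway (2.21) and interferon-stimulated genes (1.64), with the value after oxygen in parentheses. The antioxidant median differed in sign, at 0.06 in air and -0.27 after oxygen. Single genes differed in size. Eln had -3.90 in air and -2.92 after oxygen, Cdkn1a 2.00 and 0.85, and Mmp12, a macrophage elastase, 2.56 and -0.00. Whether these differences exceed the spread between libraries was not tested.

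**Figure D5:**
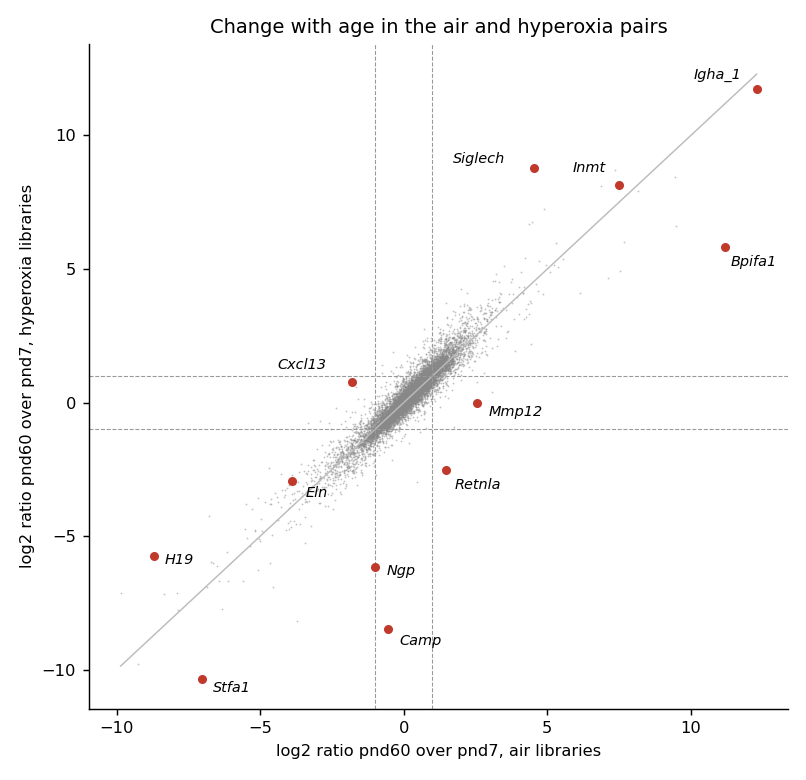
Log2 ratio of CPM at pnd60 over pnd7 in the air pair (x axis) and in the oxygen-exposed pair (y axis) for the 12784 genes with at least 100 counts in each pair, 1 point a gene. Most genes lie along the diagonal (Pearson's r 0.944, a description), while Retnla stands at 1.49 in air and -2.52 after oxygen.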

How the data were processed

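Lungs were dissociated and profiled by 10x Genomics 3′ single-cell RNA-seq. The authors deposited raw UMI counts per gene and barcode, made with Cell Ranger (3.1.0 in the file headers) on mm10 and not normalized, with 42454 features, and name Seurat 3.2.1 for their own analysis. The 2346 features with a copy suffix were kept apart from their genes. Seurat 5.3.0 in R 4.3.3 (sctransform 0.4.2, integration over 3000 features and 50 dimensions, resolution 2) gave 38 clusters over the libraries, named from marker genes of 28 classes (at least 3 raised markers). The naming limits were set after the clusters were seen, 5 clusters stayed unnamed, and the members and gene lists were chosen with earlier results of these data known.

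Counts were summed per library and per class, with classes of at least 50 cells at each age compared (8 classes). CPM had exact Poisson intervals, log2 ratios conditional binomial intervals, and shares Clopper-Pearson intervals (scipy 1.17.1), all for counting error only. A gene was called at 2-fold with at least 100 counts in the pair, and a count of 0 was set to a floor of 3 counts. Named are the 10 highest and 10 lowest ratios, up to 4 at each end of every list, members with 0 counts in 1 library, the 5 highest and lowest in each class, and genes of the study question. Doublets were called with Scrublet (scanpy 1.11.5), which marked 138 cells at pnd60 and 1 at pnd7, so that it did not work at pnd7, and none was removed. Ratios and their intervals were tested on simulated counts, and shares were not. Alternatives were TMM scaling (edgeR 4.0.16), thinning, other minimums, filters, clusterings and ways of naming cells. Promoters came from RefSeq on GRCm38.p6. Some genes that this rule names are not reported here.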

Additional observations from a re-analysis of the deposited data

Results flagged for a closer look

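Retnla and Cxcl13 had ratios of opposite sign in the air pair and the oxygen-exposed pair, and the difference between the pairs was not tested. Retnla was the only gene at least 2-fold higher in air and at least 2-fold lower after oxygen, and none was the reverse. Cxcl13 was picked by name, and its ratio after oxygen was under 2-fold. Of genes called in air and measured in both pairs, 99.8% of 1927 higher and 99.6% of 1133 lower ones kept their sign after oxygen. These 2 are therefore not the only genes whose sign differed. Retnla, a secreted protein of type 2 responses, stood at 23.1 CPM at pnd7 and 64.7 CPM at pnd60 in air, a log2 ratio of 1.49, and had a ratio of -2.52 after oxygen. Type II cells held 250 of its 384 air counts at pnd7, while dendritic cells held 470 and interstitial macrophages 354 of the 954 at pnd60. A single cell held 311 (32.6%) of these pnd60 counts and 5 cells held 88.8%. Cxcl13, a B cell chemokine, had 83 counts at pnd7 and 21 at pnd60 in air, a log2 ratio of -1.81, against 67 and 139 after oxygen, a ratio of 0.77. Each ratio compares 2 libraries.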

How the results depend on the processing

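No paired analysis was possible because each age had 1 library, and for the same reason no library could be left out. The count of higher genes, 1962, was 5631 with all barcodes, 1160 with a minimum of 500 counts and 3585 with no minimum. The count of lower genes, 1216, was 629 with all barcodes, 653 after thinning, 1849 with a minimum of 20 counts, 649 with a minimum of 500 and 2577 with no minimum. Of the calls, 90.0% were higher with all barcodes, 71.7% after thinning and 44.4% after centring on the median gene, in place of 61.7%. Differences in share, in percentage points, were 33.2 (lymphoid), 2.84 (myeloid), 10.8 (endothelial), -14.1 (epithelial), -8.24 (mesenchymal) and -19.9 (hemoglobin or platelet). At resolution 1 they were 29.5 for lymphoid, 5.45 for myeloid, -21.4 for epithelial and -16.7 for hemoglobin or platelet cells. Leiden clustering without integration gave 4.75 for myeloid, -9.46 for epithelial and -22.3 for hemoglobin or platelet cells. Naming each cell by its own markers gave 17.1, 7.42, -10.9, -18.3 and -7.14 for lymphoid, endothelial, epithelial, mesenchymal and hemoglobin or platelet cells, and a wider filter (more than 500 and fewer than 8000 genes, under 10% mitochondrial) named the same way 18.1, 8.75, -17.3 and -7.16 for these without the epithelium. Leaving hemoglobin genes out before clustering gave -4.44 for epithelial and -13.1 for hemoglobin or platelet cells. Without cells of at least 5% hemoglobin the differences were 25.7 (lymphoid), -1.88 (myeloid, reversed), 6.58 (endothelial), -7.68 (epithelial), -19.1 (mesenchymal) and -0.368 (hemoglobin or platelet). Over the 5 other compartments alone, a denominator chosen after seeing the data, they were 30.0 (lymphoid), -1.05 (myeloid, reversed), 8.91 (endothelial), -23.7 (epithelial) and -14.2 (mesenchymal). The causes were not tested.

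Of the list medians recomputed under the alternatives, 34 moved by more than their tolerance and 197 did not. The antioxidant median alone changed sign, from 0.06 to between -0.36 and -0.15 under TMM scaling, centring, the mean of each cell's CPM and thinning. The lower share of type I genes was 41.3% after thinning and 19.1% without doublets in place of 11.4%. Without the airway secretory and hemoglobin-high clusters, the ratio of Igha_1 was 5.71 and that of Bpifa1 5.17. Depth limits genes under 100 counts in the pair, and the 8 classes with at least 50 cells at each age.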

Other observations

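A T cell cluster was led by Rag1 and Dntt, the recombinase and terminal transferase of immature lymphocytes. It held 32 of the 122 T cells at pnd7 and 36 of the 420 at pnd60, with Rag1 at 3449 and 3753 CPM and Dntt at 1037 and 1784 CPM.

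The neutrophil granule genes Ngp and Camp had log2 ratios of -0.99 and -0.54 in air, and of -6.15 and -8.49 in the oxygen-exposed pair. Ngp stood at 31.5 CPM at pnd7 and 15.8 CPM at pnd60 in air. These genes were chosen after their values were seen, and the difference between the pairs was not tested.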
